A study of Homo sapiens with 12 samples.

Results

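The cholesterol genes described here are 26 of the 60604 genes counted by RNA sequencing in HEK293T cells, taken by gene symbol from the pathway. They comprise 18 enzymes of synthesis, 7 of the mevalonate arm (from acetyl-CoA to farnesyl pyrophosphate) and 11 of the sterol arm (from squalene to cholesterol). The others are 3 proteins of the sterol-sensing system, 3 proteins of lipoprotein uptake and transport inside the cell, and 2 exporters. HEK293T is a human embryonic kidney line that carries the SV40 large T antigen and grows here in medium with serum. The cells received no plasmid, a plasmid labelled sgRNA-dCas9-VP160-P2A-EGF (dCas9-VP160), or that plasmid with 6 CD34-gRNAs, and RNA was taken after 48 h. In dCas9-VP160 a Cas9 that cannot cut DNA is fused to repeats of a viral activation domain, and guide RNAs bring it to a promoter. Each group comprises 4 libraries, 2 technical replicates from each of 2 experiments on separate batches of cells. Transfection was transient, with lipofectamine and 5.4 pmol of plasmid in all, and no source used here states what share of the cells took up plasmid. The labels call the control cells non-transfected in one place and treated with transfection reagents alone in another. Because no group had a plasmid lacking dCas9-VP160, effects of plasmid DNA and of the protein cannot be told apart. Likewise no group had guides without a CD34 target, so effects of carrying guides and of targeting CD34 cannot be told apart.

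The 12 libraries held 6750035 to 11932244 gene counts. CD34, the target of the guides, measured 1.52 to 2.47 CPM (counts scaled to library size, TMM-normalised) in the libraries without plasmid, 0.774 to 1.02 with dCas9-VP160 and 94.5 to 106.7 once the guides were added. Of 7 genes typical of the HEK293 line, NEFL, VIM, KRT8 and KRT18 were abundant (245.8 to 886 CPM over all libraries), whereas PAX2, LHX1 and NEFM were low (0.113 to 6.08 CPM). Of 8 markers of liver, blood and endothelium, HBB was at 0 in all 12 libraries and none exceeded 4 counts in any. The share of mitochondrially encoded counts was 8.31 to 8.78% without plasmid, 5.14 to 5.63% with dCas9-VP160 and 5.57 to 7.50% with guides added. In the guide libraries of experiments 1 and 2 it was 5.57 and 5.59% in replicate 1 and 7.50 and 7.44% in replicate 2. The part of this share in the differences between groups was not tested. Fewer cells with a transcript and less of it per cell cannot be told apart in these bulk libraries.

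Cells make cholesterol from acetyl-CoA through mevalonate, isoprenoid pyrophosphates and squalene. When sterols in the endoplasmic reticulum are scarce, SCAP carries the transcription factor encoded by SREBF2 to the Golgi, where proteases release it to activate genes of synthesis and uptake. When sterols are plentiful, INSIG1 holds SCAP back, and oxysterols activate the liver X receptors, which raise the exporters ABCA1 and ABCG1 and the ubiquitin ligase MYLIP.

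Promoter sequences were available from RefSeq (GRCh38.p14) for 22 of the 26 genes, as 27 promoters. In the 250 bases before the transcript start, on either strand, 19 of the 27 (70.4%) held the letters CCAAT, the box bound by NF-Y, against 32.0% of all 35116 promoters and 32.5% of the 18554 promoters of tested genes. GGGCGG, a box of SP1, was in 25 of the 27 (92.6%), against 42.6% of all promoters and 60.6% of those of tested genes. The letters TCACNCCAC, a form of the sterol regulatory element, were found only for SREBF2, 133 bases before its start, and are in 0.883% of all promoters. TGATGNAA, a composite element of ATF4 and C/EBP, was in none of the 27 (3.14% of all promoters), nor was the direct repeat of the liver X receptors (0.0142%). These matches describe letters, and no binding was measured. Shown next are the sequence of SREBF2, which holds the only sterol regulatory match, and those of the 4 matched genes with the largest differences between dCas9-VP160 and no plasmid. Each runs from 250 bases before the RefSeq start to the last base before the gene's GENCODE v29 start. Capitals mark TCACNCCAC and CCAAT or their reverse complements. They lie at chr22:41832855-41833078, plus strand for SREBF2, chr1:162790452-162790701, plus strand for HSD17B7, chr5:111512591-111512785, minus strand for STARD4, chr5:43313513-43313662, minus strand for HMGCS1, and chr7:155297628-155297775, plus strand for INSIG1.
SREBF2: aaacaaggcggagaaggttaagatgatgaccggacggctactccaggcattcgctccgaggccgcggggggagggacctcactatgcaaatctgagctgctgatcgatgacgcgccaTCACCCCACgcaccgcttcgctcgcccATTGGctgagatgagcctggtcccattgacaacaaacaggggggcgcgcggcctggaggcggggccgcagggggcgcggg
HSD17B7: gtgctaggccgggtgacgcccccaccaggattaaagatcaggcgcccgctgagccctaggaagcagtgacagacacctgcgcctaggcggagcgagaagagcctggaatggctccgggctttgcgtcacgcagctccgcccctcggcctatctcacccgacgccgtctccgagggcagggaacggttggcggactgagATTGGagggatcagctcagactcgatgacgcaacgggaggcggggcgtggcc
STARD4: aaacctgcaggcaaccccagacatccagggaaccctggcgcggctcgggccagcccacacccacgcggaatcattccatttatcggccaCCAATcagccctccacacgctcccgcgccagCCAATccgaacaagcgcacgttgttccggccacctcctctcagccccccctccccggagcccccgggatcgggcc
HMGCS1: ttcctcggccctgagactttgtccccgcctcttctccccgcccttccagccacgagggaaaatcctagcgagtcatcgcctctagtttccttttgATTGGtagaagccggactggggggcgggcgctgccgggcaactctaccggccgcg
INSIG1: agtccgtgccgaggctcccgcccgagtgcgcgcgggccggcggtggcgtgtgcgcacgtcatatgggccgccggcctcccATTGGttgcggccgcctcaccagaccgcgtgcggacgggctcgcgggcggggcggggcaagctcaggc
CCAAT boxes stood in all 5, upstream of genes that were higher with dCas9-VP160 (HSD17B7, INSIG1) and of genes that were lower (SREBF2, STARD4, HMGCS1).

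Levels per kilobase of exon, a scale on which genes can be roughly compared, put 22 of the 26 genes above the median tested gene. The length used is that of all annotated exons of a gene joined, not of the transcript in use. Positions on this scale therefore depend in part on the annotation. Without plasmid the median of all tested genes was 3.94 CPM per kb. EBP stood first at 45.3 ± 3.88 CPM per kb (SD, n = 2 experiments), ahead of FDPS at 41.1 ± 0.611, a gap of about the SD of EBP. TM7SF2 (28.7 ± 1.95), DHCR7 (28.6 ± 2.55) followed and did not differ beyond their spread, and PMVK came next (25.2 ± 2.39). A further 13 genes, from NSDHL (23.7) through SREBF2 (18.5) to MYLIP (13), lay in a near-continuous series, in which all neighbours but SQLE and SREBF2, and SCAP and STARD4, differed by less than the larger of their SDs. LSS (7.83), MVD (4.67), HSD17B7 (4.34) and NPC1 (4.33) were closer to the median of all tested genes. MVK (2.88) and ABCG1 (2.7) were below it, and CYP51A1 (0.609 ± 0.109) and ABCA1 (0.387 ± 0.0533) were the lowest. CYP51A1 had only 14 to 35 counts per library, and 83.2% of its exon bases overlap other GENCODE v29 genes. Of its exon bases, 79.4% are shared on its own strand with AC000120.2, whose identifier is absent from the deposited counts. Whether that overlap affected how its reads were counted is not known, so its level is uncertain.

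**Figure D1:**
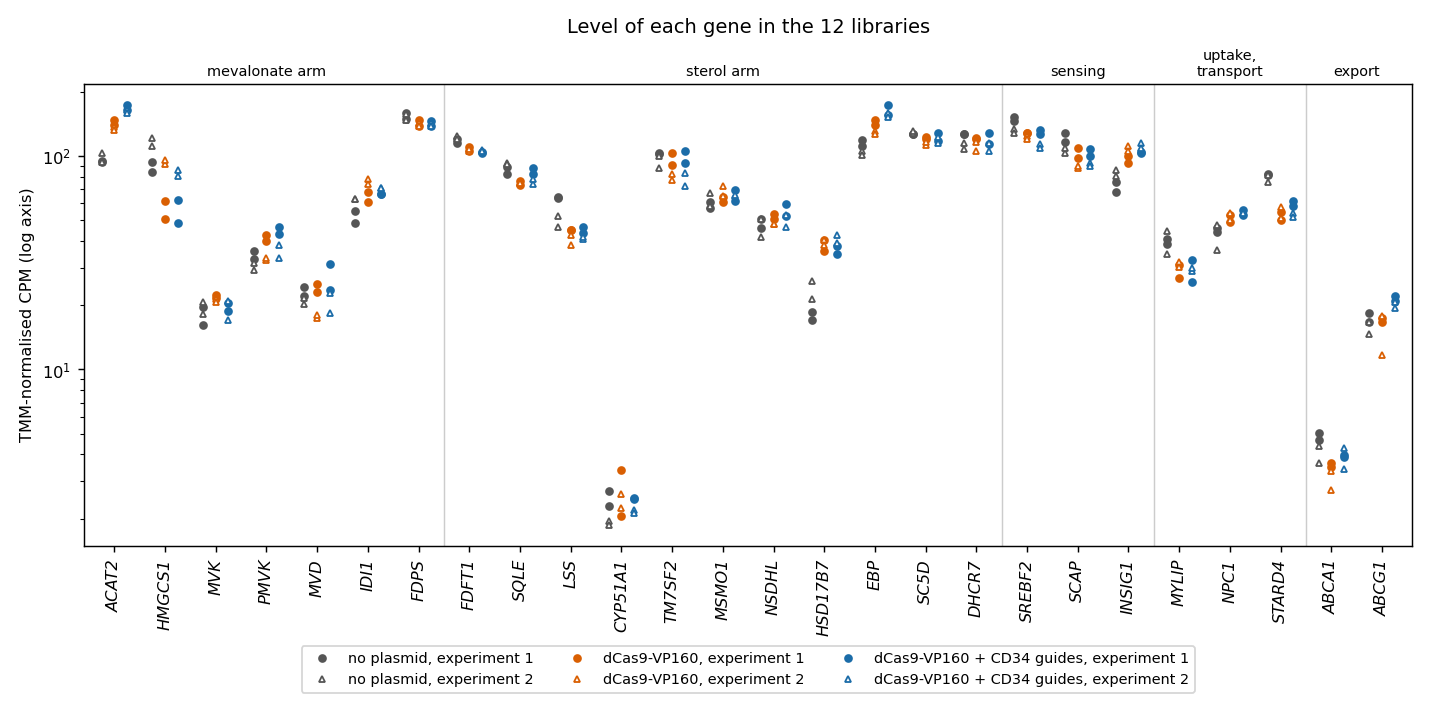
TMM-normalised CPM of the 26 genes (log axis) in the 12 libraries, grouped by role; each symbol is 1 library, filled for experiment 1 and open for experiment 2, coloured by group. Most genes stay within a narrow band over the 3 groups, ABCA1 and CYP51A1 lie far below the rest, and HSD17B7, ACAT2 and STARD4 separate the cells without plasmid from both transfected groups.

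The first comparison asks how these genes differed between cells given dCas9-VP160 without guides and cells without plasmid. The differences were modest and went both ways within the pathway: 8 genes were higher, 11 were lower and 7 were not called (edgeR quasi-likelihood test, Benjamini-Hochberg adjusted p under 0.05). HSD17B7, ACAT2, INSIG1, EBP, IDI1, NPC1, PMVK and MVK were higher, and STARD4, HMGCS1, LSS, MYLIP, SCAP, SQLE, SREBF2, FDFT1, TM7SF2, SC5D and FDPS were lower. Over all 19662 tested genes 51.2% were called, 26.6% higher and 24.6% lower, and with the test restricted to the 12871 genes with a mean of at least 5 CPM, where most of the 26 lie, 8231 were called. The median log2 fold change was -0.062 for the 26 genes, with a range from -0.58 to 0.90, and -0.00196 for all tested genes. No member reached a log2 fold change of 1 in either direction, and 3 called members passed 0.5 (HSD17B7, ACAT2 and STARD4), a size that 21.5% of all tested genes passed with a call. With the experiment left out of the model 7 of the 19 calls remained (HSD17B7, ACAT2, INSIG1, EBP, STARD4, LSS and MYLIP).

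By role, synthesis was divided (6 higher, 7 lower and 5 not called of 18), sensing had 1 higher and 2 lower of 3, uptake and transport inside the cell had 1 higher and 2 lower of 3, and neither exporter was called. Within synthesis the mevalonate arm had 4 higher, 2 lower and 1 not called of 7, and the sterol arm 2 higher, 5 lower and 4 not called of 11. Added up, the 18 synthesis enzymes measured 1332 ± 3.79 CPM without plasmid, 1346 ± 20.8 with dCas9-VP160 and 1403 ± 39.0 with guides added (SD, n = 2 experiments). The sums without plasmid and with dCas9-VP160 differed by less than the SD of the latter. The 3 genes of uptake and transport summed to 163.6 ± 3.95, 135.4 ± 2.43 and 139.8 ± 5.13 CPM. With dCas9-VP160, STARD4 went from 80.5 to 53.6 and MYLIP from 39.3 to 30.2 CPM, while NPC1 went from 43.8 to 51.6. MYLIP lowers lipoprotein uptake and none of the 3 is an uptake receptor, so neither their sum nor their count by direction measures uptake. The 4 libraries of each group did not overlap for 12 of the 26 genes (37.1% of all tested genes).

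**Figure D2:**
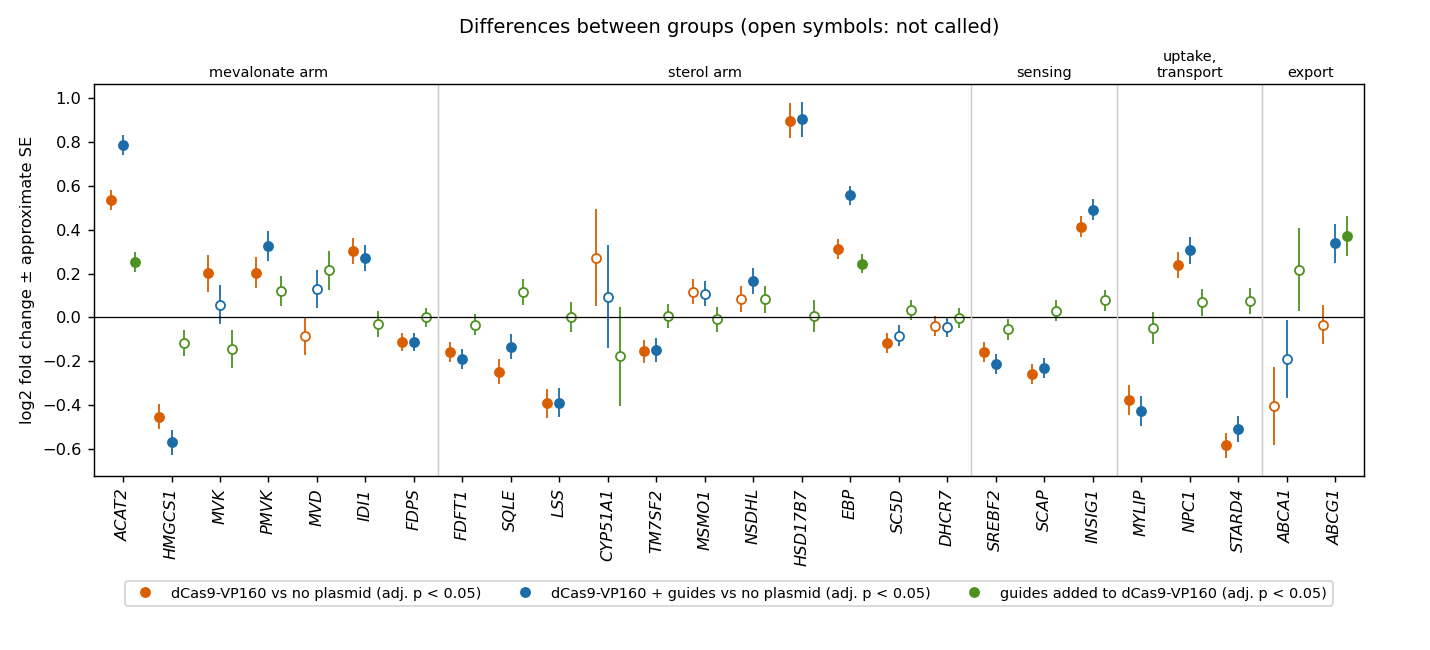
Log2 fold change of each of the 26 genes with its approximate standard error, for dCas9-VP160 against no plasmid (orange), dCas9-VP160 with guides against no plasmid (blue) and guides added to dCas9-VP160 (green); filled symbols passed an adjusted p under 0.05. The orange and blue points share the cells without plasmid; the green points lie close to 0 for all but ACAT2, EBP, ABCG1 and a few uncalled genes.

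In the mevalonate arm the first enzyme was higher and the second lower. ACAT2, the thiolase that joins acetyl-CoA units in the cytosol, lies at chr6:159760328-159779055 (GRCh38, as all coordinates here). In replicates 1 and 2 of experiment 1 and then of experiment 2, the order used for all lists of 4 values, it measured 95, 93.4, 104 and 93.7 CPM without plasmid, 147, 139.6, 137 and 132 with dCas9-VP160 and 164, 174, 164 and 159.6 with guides added. Every library without plasmid was below every transfected one. The log2 fold change with dCas9-VP160 was 0.54 (SE 0.05, adjusted p = 3.65e-10), a rise of 1.45-fold. Other annotated genes cover 52.3% of the exon bases of ACAT2, all on the opposite strand, and the library kits named do not mark strand. SOD2 and SOD2-OT1 cover most of that, and their GENCODE v29 identifiers are absent from the deposited counts. The third is TCP1, a chaperonin subunit, with 397 shared bases. TCP1 rose from 393 ± 9.11 to 539 ± 17.2 CPM, by 0.46 (SE 0.03, adjusted p = 1.97e-11), and its part in the rise of ACAT2 was not tested.

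HMGCS1, which adds a further acetyl unit to form HMG-CoA, lies at chr5:43289395-43313512. It measured 94.3, 83.9, 111 and 122 CPM without plasmid, 61.6, 50.6, 91.9 and 95.3 with dCas9-VP160 and 48.4, 62.3, 85.9 and 80.7 with guides added. The groups overlap when the experiments are pooled, and experiment 2 was higher than experiment 1 in every group, by 0.41, 0.71 and 0.59 on the log2 scale. Within each experiment the libraries without plasmid were all higher. The log2 fold change was -0.45 (SE 0.06, adjusted p = 2.08e-07), a fall of 1.37-fold, and without the experiment in the model the adjusted p was 0.256 at -0.44. An antisense gene, AC114947.2, overlaps 15% of its exon bases, and its difference was -0.14 (SE 0.08, adjusted p = 0.172).

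The later steps of this arm changed less. MVK, which phosphorylates mevalonate, went from 18.7 ± 0.835 to 21.5 ± 0.617 CPM, a difference of 0.20 (SE 0.08, adjusted p = 0.0492) on the log2 scale. That call was lost when any library but no plasmid experiment 1 replicate 2 and no plasmid experiment 2 replicate 1 was left out (0.15 to 0.22, adjusted p = 0.0519 to 0.174). PMVK, the next kinase, went from 32.3 ± 3.05 to 37.4 ± 6.21 CPM, by 0.20 (SE 0.07, adjusted p = 0.0148). Leaving out no plasmid experiment 2 replicate 2 (adjusted p = 0.0606) or dCas9-VP160 experiment 1 replicate 1 (0.0685) ended that call. MVD, which decarboxylates the product, measured 20.2 to 24.4 CPM without plasmid and 17.4 to 25.1 with dCas9-VP160 and was not called (-0.09, adjusted p = 0.435). MVD was the only member whose log2 fold changes in experiments 1 and 2 (0.06 and -0.24) had opposite signs.

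IDI1, the isomerase that supplies dimethylallyl pyrophosphate, measured 55, 48.7, 63.1 and 62.9 CPM without plasmid and 67.5, 61, 77.9 and 73.8 with dCas9-VP160, higher in each experiment, by 0.30 (SE 0.06, adjusted p = 8.27e-05). Its antisense neighbour IDI2-AS1, which overlaps 14.8% of its exon bases, rose as well, by 0.45 (SE 0.12, adjusted p = 0.00376), and its part in the count of IDI1 was not tested. FDPS, which condenses the isoprenoids to farnesyl pyrophosphate, fell slightly, from 153 ± 2.27 to 141 ± 1.86 CPM (-0.11, SE 0.04, adjusted p = 0.0268). FDPS lost its call without no plasmid experiment 1 replicate 2, no plasmid experiment 2 replicate 1, dCas9-VP160 experiment 1 replicate 1 or dCas9-VP160 experiment 2 replicate 2 (-0.10 to -0.08, adjusted p = 0.0533 to 0.216). RUSC1-AS1, antisense to 18.6% of its exon bases, fell by a similar amount (-0.15, SE 0.05, adjusted p = 0.0224).

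In the sterol arm the enzymes that build and close the ring were lower. FDFT1, which joins farnesyl units to squalene, measured 115, 119.8, 124 and 119.7 CPM without plasmid and 105, 110.0, 106 and 108 with dCas9-VP160. SQLE, which oxidises squalene, measured 82.1, 88.5, 92.6 and 91.5 and 73, 76.6, 74.6 and 74.4 CPM. LSS, which cyclises the product to lanosterol, measured 64, 63.9, 46.3 and 52.2 and 45, 45.2, 38.1 and 42.8 CPM. For all 3 the groups did not overlap. The log2 fold changes were -0.16 (SE 0.05, adjusted p = 0.00492) for FDFT1, -0.25 (SE 0.06, adjusted p = 0.000639) for SQLE and -0.39 (SE 0.07, adjusted p = 1.32e-05) for LSS. LSS had the widest gap between experiments in cells without plasmid of these 3, and its log2 fold changes in experiments 1 and 2 were -0.50 and -0.28. LSS kept its call under every alternative. FDFT1 lost its call by DESeq2 (adjusted p = 0.0635), without the experiment in the model (0.145), without replicate 1 (0.0747) and in experiment 1 alone (0.163). SQLE lost its call without the experiment in the model (adjusted p = 0.0664).

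After lanosterol, HSD17B7 and EBP were higher, TM7SF2 and SC5D slightly lower, and CYP51A1, MSMO1, NSDHL and DHCR7 were not called. HSD17B7, the keto reductase of the complex that removes methyl groups from the sterol ring, lies at chr1:162790702-162812817 and had the largest difference of the 26 genes. It measured 17.1, 18.6, 26.1 and 21.5 CPM without plasmid, 35.9, 40.4, 40.6 and 38.5 with dCas9-VP160 and 34.8, 37.9, 42.6 and 39 with guides added. Every transfected library was above every control library. The log2 fold change was 0.90 (SE 0.08, adjusted p = 3.51e-10), a rise of 1.86-fold, with 1.07 in experiment 1 and 0.74 in experiment 2.

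The pseudogene HSD17B7P2, a near copy of HSD17B7, moved more. It measured 5.96, 4.24, 4.73 and 5.77 CPM without plasmid, 20.7, 18.6, 16.3 and 18.8 with dCas9-VP160 and 13.4, 13.8, 11.4 and 10.8 with guides added. These 3 sets of libraries did not overlap. It rose with dCas9-VP160 by 1.87 (SE 0.12, adjusted p = 6.06e-13) and fell by 0.60 (SE 0.10, adjusted p = 0.000412) when guides were added, whereas HSD17B7 itself did not pass the test with guides added (0.01, adjusted p = 0.972). Reads that fit both copies can be counted for either, so the values of both are uncertain, and the part of the pseudogene in the rise of HSD17B7 was not tested. Of 16 pseudogenes named after 4 of the 26 genes, HSD17B7P2 was the only 1 with enough counts to be tested, and none of the others exceeded 18 counts over all libraries.

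**Figure D3:**
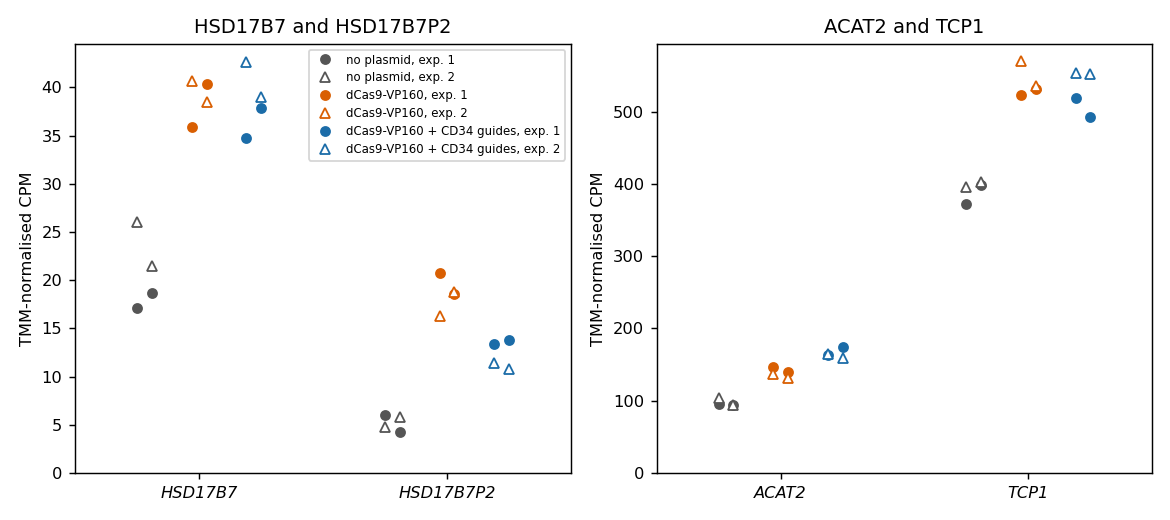
TMM-normalised CPM of HSD17B7 beside its pseudogene HSD17B7P2 (left) and of ACAT2 beside TCP1, which overlaps it on the opposite strand (right); each symbol is 1 library, filled for experiment 1 and open for experiment 2. HSD17B7P2 lies at 16.3 to 20.7 CPM with dCas9-VP160 and at 10.8 to 13.8 with guides added, and both ACAT2 and TCP1 lie lower in the 4 libraries without plasmid.

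EBP, the isomerase that moves a double bond of the sterol ring, measured 112, 119, 105 and 101 CPM without plasmid, 140.0, 147, 130.3 and 126 with dCas9-VP160 and 173, 156, 159 and 153 with guides added. The 3 sets of libraries were in that order with no overlap. Its rise with dCas9-VP160 was 0.31 (SE 0.04, adjusted p = 1.59e-06), and 0.30 and 0.32 in the experiments. TM7SF2, a sterol reductase, went from 97.8 ± 6.63 to 88 ± 11.2 CPM (-0.16, SE 0.05, adjusted p = 0.0151). Its libraries overlapped in experiment 1, and the call ended without no plasmid experiment 2 replicate 1 (-0.11, adjusted p = 0.0694) or dCas9-VP160 experiment 1 replicate 1 (-0.10, adjusted p = 0.189). SC5D, a sterol desaturase, measured 127 to 131 CPM without plasmid and 113 to 123 with dCas9-VP160 (-0.12, SE 0.05, adjusted p = 0.0346). That call was lost without no plasmid experiment 1 replicate 1, no plasmid experiment 2 replicate 2, any library with dCas9-VP160 alone, or guides experiment 1 replicate 1 (-0.13 to -0.10, adjusted p = 0.0508 to 0.137).

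The other 4 enzymes of this arm did not pass the test. MSMO1, a methyl oxidase of the demethylation complex, measured 57 to 66.8 CPM without plasmid and 60.8 to 72.3 with dCas9-VP160 (0.12, SE 0.06, adjusted p = 0.0871). NSDHL, its dehydrogenase partner, measured 41.7 to 51 and 48.2 to 53.2 CPM (0.08, SE 0.06, adjusted p = 0.258). DHCR7, which reduces the last intermediate of one branch to cholesterol, measured 108 to 127 and 105 to 122 CPM (-0.04, SE 0.04, adjusted p = 0.489). Of the 26 genes it had the smallest difference but for ABCG1, and its libraries overlapped in all groups. For CYP51A1, the demethylase that acts on lanosterol, the values were 1.86 to 2.69 and 2.05 to 3.39 CPM (0.27, SE 0.22, adjusted p = 0.321). That difference was little larger than its SE, at 14 to 35 counts per library, and what size could be detected at this level was not tested.

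Within the sterol-sensing system the retention factor INSIG1 was higher, and the activator and its escort were lower. INSIG1, at chr7:155297776-155310235, measured 75.9, 67.6, 80.8 and 85.6 CPM without plasmid, 99.6, 92.8, 111 and 106 with dCas9-VP160 and 104, 105, 115 and 109 with guides added, without overlap between control and transfected libraries. It rose by 0.41 (SE 0.05, adjusted p = 8.57e-08), or 1.33-fold. INSIG2, the other retention factor and no member of the 26, fell from 56.6 ± 2.08 to 45.3 ± 1.21 CPM (-0.32, SE 0.06, adjusted p = 6.91e-05), and was named after its values were seen. SCAP measured 116, 128, 104 and 109 CPM without plasmid and 98.3, 109, 88 and 89.7 with dCas9-VP160. The ranges touch across experiments, but within each experiment SCAP was lower with dCas9-VP160, and over both the log2 fold change was -0.26 (SE 0.05, adjusted p = 3.15e-05). SREBF2, at chr22:41833079-41907308, measured 146, 153, 133 and 128 and 128, 128, 124 and 119.9 CPM and fell by a smaller amount (-0.16, SE 0.05, adjusted p = 0.00487), again separated within each experiment only. Without the experiment in the model SCAP (adjusted p = 0.105) and SREBF2 (0.258) lost their calls, and INSIG1 kept its own (0.0167).

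STARD4, a soluble carrier that moves cholesterol between membranes and is itself a target of the SREBF2 product, had the largest fall of the 26 genes. At chr5:111496033-111512590, it measured 81.6, 82.6, 75.7 and 81.8 CPM without plasmid, 54.6, 50.3, 58 and 51.3 with dCas9-VP160 and 58.1, 61.4, 54.2 and 51.7 with guides added. All control libraries were above all transfected ones. The log2 fold change was -0.58 (SE 0.06, adjusted p = 2.92e-09), a fall of 1.50-fold. STARD4-AS1, the antisense RNA that shares 124 exon bases with it, fell further, from 39.4 ± 1.67 to 12.7 ± 1.45 CPM. Its log2 fold change was -1.63 (SE 0.08, adjusted p = 8.23e-15). The overlap is 2.18% of the exon bases of STARD4, and what reads of the antisense RNA contribute to its count was not tested.

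MYLIP, the ubiquitin ligase that lowers lipoprotein uptake, measured 40.7, 38.7, 44.6 and 34.8 CPM without plasmid, 31, 26.9, 32 and 30.2 with dCas9-VP160 and 32.5, 25.8, 28.9 and 29.7 with guides added. Control and transfected libraries did not overlap, and it fell by 0.38 (SE 0.07, adjusted p = 4.23e-05). NPC1, which exports cholesterol from lysosomes, went the other way, with 43.9, 46, 36.2 and 47.7 CPM without plasmid and 52.8, 49, 54.2 and 49.9 with dCas9-VP160 (0.24, SE 0.06, adjusted p = 0.00179). The lowest control value of NPC1 was from no plasmid experiment 2 replicate 1, and the log2 fold change was 0.16 (adjusted p = 0.0308) with that library left out. The call was lost without replicate 1 of every group and experiment (0.08, adjusted p = 0.48), in experiment 1 alone (0.18, adjusted p = 0.123) and without the experiment in the model (0.24, adjusted p = 0.0646). RMC1, on the opposite strand across 5.98% of its exon bases, rose by 0.43 (SE 0.07, adjusted p = 2.13e-05), and its part in the count of NPC1 was not tested.

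Neither exporter was called. ABCA1, which loads cholesterol onto apolipoproteins poor in lipid, had 25 to 53 counts per library and measured 5.03, 4.68, 4.38 and 3.63 CPM without plasmid and 3.48, 3.66, 2.73 and 3.33 with dCas9-VP160. It was lower in each experiment, but the difference, -0.41 (SE 0.18, adjusted p = 0.0619), missed the threshold. It was called lower in 2 of 23 alternatives and not called in the other 21. The 2 were upper quartile scaling (-0.45, adjusted p = 0.0394) and the 12 libraries unsummed (-0.42, adjusted p = 0.043). In the latter, technical replicates count as separate libraries. ABCG1, which passes cholesterol to mature lipoproteins, measured 16.7, 18.3, 16.6 and 14.6 and 17.5, 16.7, 11.7 and 17.7 CPM (-0.03, SE 0.09, adjusted p = 0.787). The lowest of these values, 11.7 CPM, came from dCas9-VP160 experiment 2 replicate 1.

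The direction of each difference was also compared between the 2 experiments. Libraries with dCas9-VP160 were separated from those without plasmid, the same way in both experiments, for 19 of the 26 genes, 8 higher and 11 lower (48.8% of all tested genes). TM7SF2 was called without being separated in both, and ABCA1 was separated in both without being called. A test of whether the response differed between experiments called none of the 26 genes in any of the 3 comparisons (edgeR interaction term over the 12 unsummed libraries, where technical replicates give the spread), beside 0.0102% of all tested genes for dCas9-VP160 against no plasmid, 0 for guides added and 0.0153% for guides against no plasmid. At an unadjusted p under 0.05, HMGCS1 fell less (0.33, SE 0.12, adjusted p = 0.873) and HSD17B7 rose less in experiment 2 for dCas9-VP160 against no plasmid, none passed with guides added, and SQLE passed for guides against no plasmid (0.00 in experiment 1 and -0.28 in experiment 2, adjusted p = 1).

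**Figure D4:**
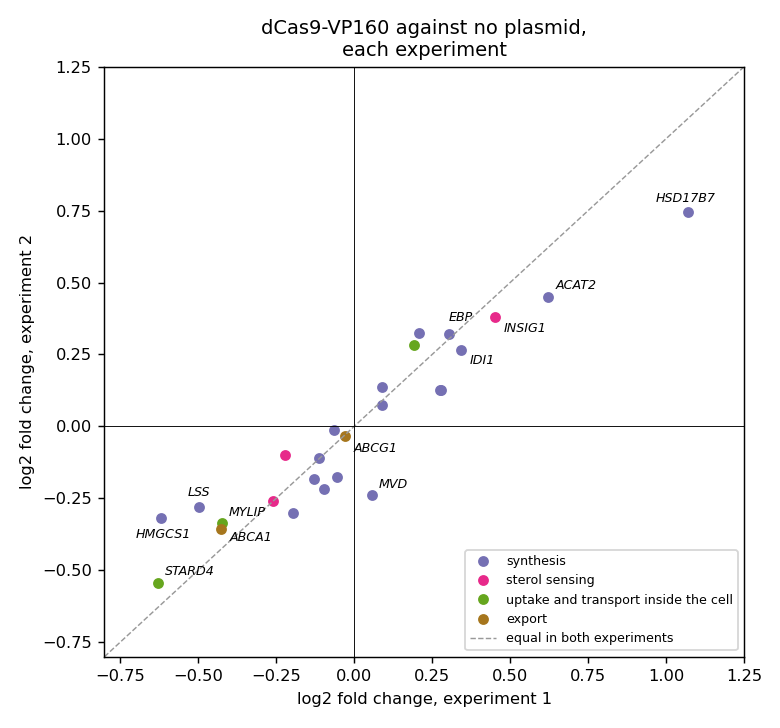
Log2 fold change of each of the 26 genes between dCas9-VP160 and no plasmid in experiment 1 (horizontal axis) and experiment 2 (vertical axis), coloured by role; the dashed line marks equal values. HSD17B7 (1.07 and 0.74) and STARD4 (-0.63 and -0.54) lie at the 2 ends, and MVD is the gene on opposite sides of 0.

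The second comparison asks what the CD34 guides added to dCas9-VP160 changed. ABCG1, ACAT2 and EBP were higher with guides, none of the 26 genes was lower, and 23 were not called, in a comparison where 7.56% of all tested genes were called, 4.16% higher and 3.41% lower. At an unadjusted p under 0.05 there were 4 higher and 0 lower, and DESeq2 called 2 higher and 0 lower. The median log2 fold change was 0.019, beside -0.0040 for all tested genes, and no member passed 0.5, a size that 1.27% of all tested genes passed with a call. ACAT2 rose by 0.25 (SE 0.05, adjusted p = 0.000771) and EBP by 0.24 (SE 0.04, adjusted p = 0.000673), with all 4 guide libraries above all 4 with dCas9-VP160 alone (8.5% of all tested genes did not overlap). ABCG1, with 20.9, 22.2, 20.7 and 19.5 CPM in the guide libraries, rose by 0.37 (SE 0.09, adjusted p = 0.00987); without dCas9-VP160 experiment 2 replicate 1, its lowest library, the value was 0.27 (adjusted p = 0.0809). For these 3 genes the rises in experiments 1 and 2 were 0.23 and 0.27 (ACAT2), 0.20 and 0.29 (EBP), and 0.33 and 0.41 (ABCG1). Without the experiment in the model none was called (adjusted p = 0.537, 0.614 and 0.55). PMVK and ABCA1 were also separated upwards in both experiments, without a call, among 5 members (17.2% of all tested genes).

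Of the uncalled genes with guides added, MVD went from 20.9 ± 4.37 to 24.1 ± 4.68 CPM (0.21, SE 0.09, adjusted p = 0.147) and HMGCS1 from 75.6 ± 25.9 to 69.6 ± 19.7 (-0.12, SE 0.06, adjusted p = 0.274). SQLE measured 82.5, 88.2, 73.7 and 78.3 CPM with guides (0.11, SE 0.06, adjusted p = 0.268). STARD4 (0.07, SE 0.06, adjusted p = 0.539), INSIG1 (0.08, SE 0.05, adjusted p = 0.389), LSS (0.00, SE 0.07, adjusted p = 0.986) and MYLIP (-0.05, SE 0.07, adjusted p = 0.757) differed by less than 0.1 on the log2 scale between the transfected groups.

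Cells with dCas9-VP160 and guides were also compared with the cells without plasmid, which are the same control libraries as in the first comparison, so both sets of values are given without a measure of their likeness. Here 9 genes were higher, 10 lower and 7 not called (52.6% of all tested genes called, 26.7% higher and 25.9% lower), with a median of 0.0076 beside -0.016 for all tested genes. HSD17B7 (0.91, SE 0.08, adjusted p = 3.31e-10), ACAT2 (0.79, SE 0.05, adjusted p = 1.32e-13), EBP (0.56, SE 0.04, adjusted p = 4.66e-11) and INSIG1 (0.49, SE 0.05, adjusted p = 4.04e-09) led the higher genes, followed by ABCG1 (0.34), PMVK (0.33), NPC1 (0.31), IDI1 (0.27) and NSDHL (0.16). HMGCS1 (-0.57, SE 0.06, adjusted p = 5.09e-09), STARD4 (-0.51, SE 0.06, adjusted p = 3.29e-08), MYLIP (-0.43, SE 0.07, adjusted p = 1.01e-05) and LSS (-0.39, SE 0.07, adjusted p = 1.71e-05) led the lower ones, followed by SCAP (-0.23), SREBF2 (-0.21), FDFT1 (-0.19), TM7SF2 (-0.15), SQLE (-0.14) and FDPS (-0.11). With the experiment left out of the model 8 of the 19 calls remained (HSD17B7, ACAT2, EBP, INSIG1, NPC1, STARD4, MYLIP and LSS). HMGCS1 lost its call there (-0.56, adjusted p = 0.149). With the experiment modelled, 4 of the calls depended on single libraries. SQLE lost its call without any library but no plasmid experiment 1 replicate 1 and guides experiment 1 replicate 2 (-0.14 to -0.10, adjusted p = 0.0518 to 0.183). FDPS lost it without no plasmid experiment 1 replicate 2, either no plasmid library of experiment 2, dCas9-VP160 experiment 1 replicate 1, or guides experiment 1 replicate 2 or experiment 2 replicate 2 (-0.13 to -0.09, adjusted p = 0.0537 to 0.108). NSDHL lost it without no plasmid experiment 1 replicate 1, no plasmid experiment 2 replicate 2, or replicate 1 of guides in either experiment (0.11 to 0.14, adjusted p = 0.0709 to 0.251). TM7SF2 lost it without no plasmid experiment 2 replicate 1 or replicate 1 of guides in either experiment (-0.12 to -0.09, adjusted p = 0.0895 to 0.174). MVK was not called here (0.06, adjusted p = 0.607).

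Of 44 other genes of the pathway, 43 had enough counts to be tested (CH25H did not), and with dCas9-VP160 20 were lower, 5 higher and 18 not called, beside 24.6% lower and 26.6% higher of all tested genes. Their median log2 fold change was -0.10, beside -0.00196 for all tested genes. Among sensing genes 9 of 15 were lower and 2 higher, among uptake and transport genes 8 of 16 were lower and 1 higher, among synthesis genes 2 of 4 were lower and 1 higher, and among export genes 1 of 8 was lower and 1 higher. LRP1, a large endocytic receptor of the lipoprotein receptor family, fell from 83.6 ± 6.35 to 47.2 ± 1.57 CPM (-0.82, SE 0.06, adjusted p = 1.15e-11), and its relative VLDLR from 31 ± 3.01 to 18.1 ± 0.933 CPM (-0.77, SE 0.08, adjusted p = 6.21e-09). GRAMD1B (-0.59), which carries cholesterol from the plasma membrane to the endoplasmic reticulum, TMEM97 (-0.44), a sterol-responsive membrane protein, and RXRA (-0.50) and RXRB (-0.49), partners of the liver X receptors, were lower. MARCHF6, a ubiquitin ligase of the endoplasmic reticulum that acts on SQLE, fell from 368 ± 11.6 to 262 ± 11.8 CPM (-0.49, SE 0.04, adjusted p = 2.15e-11).

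With guides added 4 of these 43 genes were higher and none lower (9 and 3 at an unadjusted p under 0.05, and 1 and 0 by DESeq2), beside 4.16% higher and 3.41% lower of all tested genes. They included SOAT1 (0.20, SE 0.04, adjusted p = 0.0055), which esterifies cholesterol, LPCAT3 (0.18, SE 0.05, adjusted p = 0.0349), a phospholipid acyltransferase that the liver X receptors induce, and OSBP (0.14, SE 0.04, adjusted p = 0.0483), which exchanges sterol for phosphoinositide. Guides against no plasmid gave 7 higher and 20 lower, beside 26.7% and 25.9% of all tested genes. They were led by NCEH1 (0.70, SE 0.09, adjusted p = 3.98e-07), a cholesteryl ester hydrolase, among the higher, and by ERLIN2 (-0.68, SE 0.11, adjusted p = 4.27e-06), an endoplasmic reticulum protein that binds the SCAP complex, LRP1 (-0.68), VLDLR (-0.68), RXRB (-0.54), GRAMD1B (-0.53) and RXRA (-0.49) among the lower.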

How the data were processed

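RNA from HEK293T cells was sequenced in 12 libraries, and the authors' deposited table holds whole-number counts per gene. Per the submitters' processing notes they used Trim Galore 0.3.7, STAR 2.6.0c, Picard 2.17.1, DESeq2 1.16.1 and hg38, while the counting program and annotation release are named in no source used here. The SMART-Seq HT and Nextera XT kits named in the labels' protocols do not mark strand, though the series names its assay dirRNAseq. The 92 spike-in rows stayed out of library sizes and tests, and at least 99.822% of each library's gene counts lay in tested genes. Spike-ins held 0.719% and 0.404% of the counts in the no plasmid libraries of experiment 1. In every other library they held at most 0.0082%, and whether this uneven share bears on the differences was not tested. A second deposited table holds none of the 26 genes and was not used.

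Technical replicates were summed within treatment and experiment (6 libraries of 16359839 to 20968535 counts). Differences were tested in R 4.3.3 with edgeR 4.0.16 (filterByExpr, TMM, robust quasi-likelihood fit on group and experiment), with Benjamini-Hochberg adjustment over 19662 genes and a threshold of 0.05. The experiment was modelled because it marks a shared batch of cells. Deviations from the group means correlated between groups at r = 0.616, 0.62 and 0.631 over 12875 genes. The p-values rest on 2 experiments, with 2 residual degrees of freedom and a spread shared across genes (24 prior degrees of freedom). The approximate SE was obtained by dividing each log2 fold change by the root of its F statistic. CPM per library is TMM-normalised over 12 libraries, means ± SD are over 2 experiments, and log2 fold changes within an experiment add a prior count of 2. A total of 3 counts, the limit that a count of 0 allows, corresponds to 0.251 to 0.444 CPM and covers counting error only. Data were also simulated over the same 19662 genes from their mean levels in all groups, with changes set in dCas9-VP160. There 90% of genes changed by a log2 fold of 0.5 and 100% of those changed by 1 were recovered. The changed genes were drawn only from well-counted ones, which leaves out levels like those of ABCA1 and CYP51A1. Every gene was given the same spread and no difference between experiments, and changes under 0.5 were not simulated.

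Symbols were found for 56321 of 60604 identifiers; coordinates and exon overlaps come from GENCODE v29 (GRCh38, 56812 identifiers matched) and promoters from RefSeq. The members and gene lists were chosen with earlier results of these data known. The genes named are all 26 members, up to 8 other pathway genes per comparison (called, with the largest log2 fold changes at a mean of at least 5 CPM) and CD34. Some genes that this rule names are not reported here. Genes that share reads with a member were named after their values were seen. Alternatives were other scalings, DESeq2 1.42.0, other filters on low counts, no experiment term, unsummed libraries, each experiment alone, and each replicate or library left out. A further threshold of 0.5 on the absolute log2 fold change was added after seeing the data.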

Additional observations from a re-analysis of the deposited data

Results flagged for a closer look

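Of 78 sets of 4 libraries (26 genes in 3 groups), 2 had a library set apart from the other 3 by more than Dixon's 95% critical value. For 4 independent values of the same distribution, chance alone sets apart about 5% of sets. Each set here holds 2 technical replicates from each of 2 experiments, so that rate need not hold. Both were the library no plasmid experiment 2 replicate 1. STARD4 measured 75.7 CPM there and 81.6 to 82.6 CPM in the other 3 libraries without plasmid. ACAT2 measured 103.9 CPM there and 93.4 to 94.96 CPM in the other 3. With each of the 12 libraries left out in turn, the log2 fold change of dCas9-VP160 against no plasmid ranged from -0.63 to -0.55 for STARD4 and from 0.51 to 0.57 for ACAT2, and both stayed called.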

How the results depend on the processing

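Over the 3 comparisons and up to 24 alternatives no called gene of the 26 changed sign. Of the alternative values of all 26 genes for dCas9-VP160 against no plasmid, 546 kept their side of the threshold, 72 lost and 4 gained a call. These numbers were 564, 56 and 2 for guides against no plasmid and 610, 11 and 1 for guides added. Genes that were not called are included in them, 23 of the 26 with guides added, so the kept values are largely not calls there. Calls kept under every alternative numbered 7 of 19, 8 of 19 and 0 of 3. Without the replicate block, 4 members were called higher and 3 lower with dCas9-VP160 (8 and 11 with it), 5 and 3 for guides against no plasmid (9 and 10), and 0 for guides added (3 higher); the other pathway genes gave 2 and 12, 3 and 11, and 0 (5 and 20, 7 and 20, and 4 higher). DESeq2 called 6 members higher and 6 lower with dCas9-VP160, 7 and 7 for guides against no plasmid, and 2 and 0 for guides added. Of the other genes it called 2 higher and 14 lower, 3 and 12, and 1 and 0 in the same order. For some of the alternatives that follow, not every count that changed is given. Experiment 1 alone gave 7 members lower with dCas9-VP160 and 0 higher with guides added, and other genes 13 lower, 0 higher and, against no plasmid, 3 higher. Experiment 2 alone gave other genes 3, 1 and 4 higher. Library totals left 2 other genes higher with guides added, and upper quartile scaling 3 higher for guides against no plasmid. A required absolute log2 fold change of 0.5, chosen after seeing the data, left 2 higher and 1 lower, 0, and 3 higher and 2 lower members. With replicates or single libraries left out, members higher and lower with dCas9-VP160 numbered 5 to 8 and 7 to 11, and members higher with guides added 1 to 4. Other genes numbered 3 to 5 higher with dCas9-VP160, 0 to 6 higher and 0 to 1 lower with guides added, and 3 to 8 higher and 13 to 20 lower for guides against no plasmid. Single libraries that moved a count were guides experiment 1 replicate 1 (4 other genes higher against no plasmid), and, for other genes with guides added, replicate 1 of no plasmid, dCas9-VP160 and guides in experiment 1, replicate 2 of no plasmid and dCas9-VP160 in experiment 2, and guides experiment 2 replicate 1 (2 higher each, the last also 1 lower). Over all genes the calls with guides added fell from 1487 to 359 by DESeq2 and 1 without the block, and ranged from 417 to 1870 with replicates left out. Those with dCas9-VP160 fell from 10070 to 6133 and 5564, and those for guides against no plasmid from 10347 to 6647 and 6098. No scaling moved the median of all genes by 0.1. Fewer libraries entered the fits that left some out; the cause of the other losses was not tested. The counts were lowest for ABCA1 and CYP51A1.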
